A study of Homo sapiens with 4 samples.

Results

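The glucose uptake, glycolysis and lactate transport genes SLC2A1, HK2, PFKP, PGK1, ENO1, PKM, LDHA, PDK1, SLC16A1 and SLC16A3 were described across SW1990 and PANC-1 cells before and after irradiation. They were matched by gene name and make up 10 of the 58174 rows with a gene identifier in the deposited table. The set was selected on measured values of these same libraries, since the count of SLC16A1 was lower after irradiation in 1 line, so the radiation values below are given as a description.

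Both lines are established human pancreatic cancer cell lines, and the question was how their transcriptomes differ after radiation. Each was sequenced unirradiated (0 Gy) and irradiated with X-rays at 10 Gy. Every combination of line and treatment had 1 library, which makes 4. SW1990 cells were grown in RPMI 1640 medium and PANC-1 cells in DMEM, each with serum, so that cell line and medium cannot be told apart. The time between irradiation and RNA collection was not given in the sources used here. With 1 library per condition there was no replicate spread for a radiation effect within a line, and the 95% intervals given below, exact Clopper-Pearson intervals, cover counting error only. Gene counts totalled 17851815 and 18305682 in the unirradiated and the irradiated SW1990 library and 23323266 and 20026595 in the PANC-1 libraries. In bulk RNA, a lower value from fewer expressing cells and one from less RNA per cell cannot be told apart.

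Glucose enters cells through facilitative transporters such as GLUT1, the product of SLC2A1, and is trapped by hexokinases, split and oxidised to pyruvate by the glycolytic enzymes. Lactate dehydrogenase interconverts pyruvate and lactate, and the proton-coupled monocarboxylate transporters MCT1 (SLC16A1) and MCT4 (SLC16A3) carry lactate across the plasma membrane, MCT4 being known for lactate export from highly glycolytic cells. Pancreatic cancers are known for strong glycolysis, and several of these genes are known targets of the hypoxia-inducible factors and of MYC.

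Both lines carried epithelial keratin transcripts, with KRT8 at 1352 and 1888 FPKM (expression scaled to transcript length and library size) in unirradiated and irradiated SW1990 cells and at 786 and 851 FPKM in PANC-1 cells. The epithelial adhesion genes EPCAM and CDH1 were high in SW1990 cells, at 217 and 140 FPKM unirradiated, and low in PANC-1 cells, at 2.28 and 0.673 FPKM. All 8 ductal or epithelial markers were measured, and they summed to 2983, 3777, 1461 and 1690 FPKM in unirradiated and irradiated SW1990 and unirradiated and irradiated PANC-1 cells. The 4 acinar markers summed to at most 0.604 FPKM and the 3 endocrine markers to 0 in every library. The 4 fibroblast markers summed to 1.40, 2.85, 9.32 and 11.6 FPKM, of which COL1A1 was the most abundant, and DCN had 0 counts throughout. The 4 immune markers summed to 0.844, 0.938, 18.8 and 13.9 FPKM, almost wholly CD68, a lysosomal protein gene, while PTPRC, the pan-leukocyte marker, had at most 2 counts. The 3 endothelial markers summed to at most 0.309 FPKM.

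The promoters of these genes were searched for ACGTG, the core letters of the hypoxia response element, and for CACGTG, the E-box that MYC-family factors can bind, which contains ACGTG. Both strands of the 250 bases before each RefSeq transcription start (GRCh38.p14) were read. Of the 10 genes, 9 had windows, 19 windows in all, and SLC16A1 had none. ACGTG was found in 7 of the 19 windows, belonging to 6 genes, HK2, LDHA, PDK1, PFKP, PGK1 and SLC16A3, against 18.5% of all 35116 promoter windows. CACGTG was found in 2 of the 19 windows, of HK2 and LDHA, against 6.34% of all windows. The sequences below belong to the 2 genes with the highest count ratios after irradiation in SW1990 cells, SLC16A3 and LDHA, and to HK2, among the lowest in PANC-1 cells. They are on the plus strand, 5′ to 3′, with each match in capitals. A window was printed up to the first base in it that GENCODE places in an exon, so that no exon base is shown, which shortened LDHA to 75 and SLC16A3 to 240 of the 250 bases.
SLC16A3, chr17:82228792-82229031: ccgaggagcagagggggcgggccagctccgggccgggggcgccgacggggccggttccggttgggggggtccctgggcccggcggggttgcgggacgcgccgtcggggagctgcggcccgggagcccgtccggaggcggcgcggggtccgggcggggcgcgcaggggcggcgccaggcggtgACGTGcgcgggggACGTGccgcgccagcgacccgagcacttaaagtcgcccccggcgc
LDHA, chr11:18394313-18394387: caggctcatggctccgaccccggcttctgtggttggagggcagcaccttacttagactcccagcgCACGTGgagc
HK2, chr2:74834920-74835169: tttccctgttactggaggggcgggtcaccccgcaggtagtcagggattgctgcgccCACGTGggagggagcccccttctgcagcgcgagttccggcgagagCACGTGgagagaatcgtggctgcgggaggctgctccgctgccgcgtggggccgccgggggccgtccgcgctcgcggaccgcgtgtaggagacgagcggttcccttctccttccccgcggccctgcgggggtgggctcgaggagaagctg
SLC16A3 held 2 matches, neither of them an E-box, whereas the shortened LDHA stretch held 1 E-box and the HK2 stretch 2. The SLC16A3 and HK2 stretches lie inside the annotated genes, before later starts. A further HK2 window, not printed, held 2 places with ACGTG and no E-box. The whole LDHA window held 3 places with ACGTG, 2 of them E-boxes. A match gives only the presence of these letters.

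In SW1990 cells the largest ratios among the 10 genes after irradiation were those of the lactate transporters, where SLC16A1 was lower and SLC16A3 was higher, with LDHA higher to a lesser degree. In PANC-1 cells neither transporter passed 2-fold and the lowest ratios were those of HK2 and PDK1. Between the lines, SLC2A1 was higher in SW1990 cells, and PFKP, PGK1, LDHA and SLC16A3 were higher in PANC-1 cells by edgeR. Within a line a gene was called past 2-fold on the ratio of its counts, scaled by TMM within the pair, if either library had an FPKM of 1 or more. In SW1990 cells 7.99% of the 15731 genes tested were past 2-fold, 3.73% higher and 4.27% lower. In PANC-1 cells 7.76% of 15159 genes were past 2-fold, 4.14% higher and 3.62% lower. The balance of directions depended on the scaling. With TMM over all 4 libraries 662 genes were higher and 580 lower in SW1990 cells, against 586 and 671. With total counts 766 were higher and 465 lower in PANC-1 cells, against 628 and 548. Of the 10 genes, SLC16A1 and SLC16A3 were past 2-fold in SW1990 cells, while PANC-1 cells had 0 of 10. Nothing is read from these counts, since the set was chosen on SW1990 values.

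**Figure D1:**
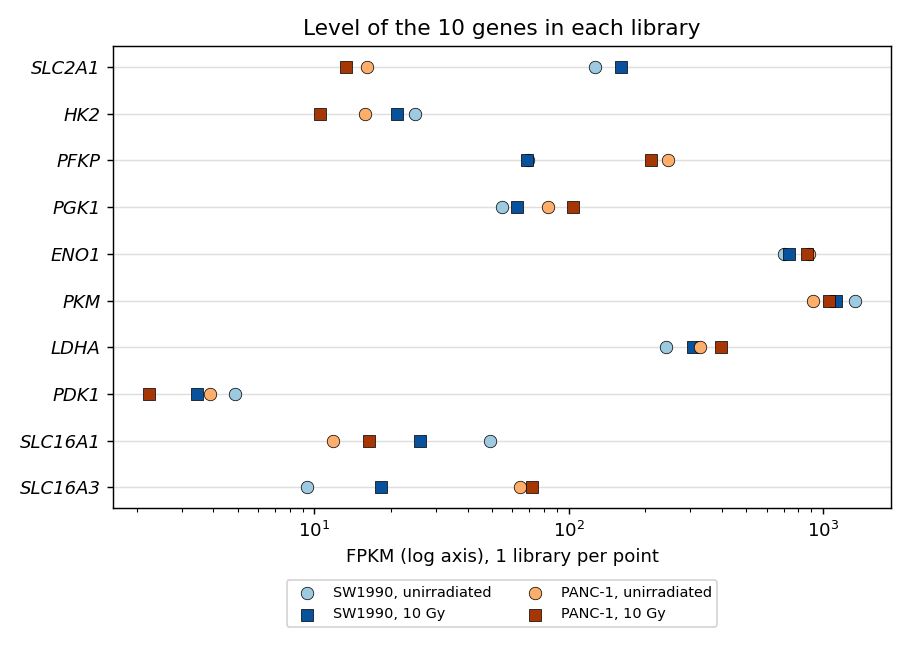
Level of each of the 10 genes in each of the 4 libraries, as FPKM on a log axis. Each point is 1 library, and the plot shows SLC2A1 and SLC16A1 higher in both SW1990 libraries than in either PANC-1 library, and PFKP and SLC16A3 lower.

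By FPKM, PKM and ENO1 were the most abundant of the 10 genes in every library and PDK1 the least. PKM, encoding the pyruvate kinase of most tissues, stood at 1339 and 1124 FPKM in unirradiated and irradiated SW1990 cells and at 911 and 1058 FPKM in PANC-1 cells. PDK1, at the other end, stood at 4.85 and 3.45 FPKM in SW1990 cells and at 3.89 and 2.23 FPKM in PANC-1 cells. The 10 genes together summed to 2625 and 2531 FPKM in SW1990 cells and to 2560 and 2747 FPKM in PANC-1 cells. With 1 library per condition, neighbours in this order could not be compared with a replicate spread.

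SLC2A1 (chromosome 1, 42925375 to 42959176, minus strand, coordinates here and below from GENCODE on GRCh38) encodes the basal glucose transporter GLUT1. SW1990 cells had 8391 counts unirradiated and 11056 irradiated, and PANC-1 cells 1319 and 974. The irradiated library was thus the higher in SW1990 cells and the lower in PANC-1 cells, and both SW1990 libraries were far above both PANC-1 libraries. The log2 ratio after irradiation was 0.39 (0.35 to 0.43) in SW1990 and -0.31 (-0.43 to -0.19) in PANC-1 cells. Per length, SLC2A1 made up 82.0% and 82.6% of the FPKM of 9 facilitative glucose transporters in SW1990 cells, and 51.9% and 41.5% in PANC-1 cells, where SLC2A8, an intracellular transporter, came next at 27.1% and 40.5%.

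HK2 (chromosome 2, 74833981 to 74893359, plus strand) encodes the inducible hexokinase that is often high in tumours. Its counts were 2717 and 2664 in SW1990 cells and 2571 and 1419 in PANC-1 cells, unirradiated before irradiated. The SW1990 libraries were close to each other, and the irradiated PANC-1 library was the lowest of the 4. The log2 ratio was -0.04 (-0.11 to 0.04) in SW1990 and -0.73 (-0.82 to -0.63) in PANC-1 cells, where 85.6% of the genes tested had a smaller ratio in size. HK1, the ubiquitous hexokinase, was the more abundant per length in each library, with HK2 at 36.5%, 30.2%, 29.1% and 20.8% of the hexokinase FPKM in unirradiated and irradiated SW1990 and unirradiated and irradiated PANC-1 cells.

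PFKP (chromosome 10, 3066333 to 3137712, plus strand) encodes the platelet-type phosphofructokinase, which catalyses the committed step of glycolysis. Its counts were 3360 and 3644 in SW1990 cells and 15520 and 12100 in PANC-1 cells. Both PANC-1 libraries were well above both SW1990 libraries. The log2 ratio after irradiation was -0.23 (-0.26 to -0.19) in PANC-1 cells. In SW1990 cells it was 0.11 (0.04 to 0.18) from the counts and -0.01 from the FPKM values, so no direction is given. Among the 3 phosphofructokinases, PFKP held 44.0% and 44.4% of the FPKM in SW1990 cells, beside the liver form PFKL at 40.3% and 38.3%, and 90.1% and 86.8% in PANC-1 cells.

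PGK1, ENO1 and PKM encode enzymes of the lower, energy-yielding part of glycolysis. PGK1 (chromosome X, 77910739 to 78129296, plus strand) had 5690 and 6684 counts in SW1990 and 11107 and 12009 in PANC-1 cells. It was higher after irradiation in both lines, with log2 ratios of 0.23 (0.17 to 0.28) and 0.24 (0.21 to 0.28). ENO1 (chromosome 1, 8861000 to 8879250, minus strand), the main enolase, had 29583 and 32455 counts in SW1990 and 50930 and 38597 in PANC-1 cells. It was slightly higher after irradiation in SW1990, at 0.13 (0.10 to 0.15), and lower in PANC-1 cells, at -0.27 (-0.29 to -0.25) from the counts and -0.03 from the FPKM values. PKM (chromosome 15, 72199029 to 72231822, minus strand) had 43875 and 41677 counts in SW1990 and 41706 and 42269 in PANC-1 cells. These were the closest counts of the 3 enzymes, with log2 ratios of -0.08 (-0.10 to -0.06) and 0.15 (0.13 to 0.17), and the gene-level table does not separate the PKM1 and PKM2 isoforms. PGK1, ENO1 and PKM were the dominant genes of their families, ENO1 with at least 95.4% of the enolase FPKM in each library.

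LDHA (chromosome 11, 18394388 to 18408425, plus strand) encodes the lactate dehydrogenase subunit that is prominent in glycolytic tissue. Its counts were 8660 and 12710 in SW1990 and 16613 and 17546 in PANC-1 cells. The irradiated library was the higher in both lines, and the SW1990 libraries were below the PANC-1 libraries. The log2 ratios were 0.55 (0.51 to 0.59) and 0.21 (0.18 to 0.24). In SW1990 cells LDHA came next in size after the transporters by counts, with 79.2% of the genes tested smaller in size. By FPKM LDHA was at 0.36 there, and PDK1, at -0.49, came next after the transporters. LDHB, the heart-type subunit, had 9433 and 9511 counts in SW1990 and 6472 and 6912 in PANC-1 cells. LDHA accounted for 44.8% and 51.3% of the lactate dehydrogenase FPKM in SW1990 and 67.8% and 64.9% in PANC-1 cells. From counts per kilobase of exon, its shares were 30.6%, 39.1%, 55.2% and 54.9%, so whether LDHA or LDHB was the more abundant in irradiated SW1990 cells depended on the measure.

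PDK1 (chromosome 2, 172555373 to 172608669, plus strand) encodes a kinase that inhibits pyruvate dehydrogenase and so holds pyruvate back from the mitochondria. Its counts were 699 and 553 in SW1990 and 600 and 331 in PANC-1 cells. The irradiated library was the lower in both lines. The log2 ratios were -0.34 (-0.51 to -0.18) and -0.73 (-0.93 to -0.53). Of the FPKM of the 4 pyruvate dehydrogenase kinases, PDK1 held 24.6% and 19.6% in SW1990 cells, where PDK3 led with 38.5% and 49.4%, and 22.0% and 10.3% in PANC-1 cells, where PDK2 led with 72.1% and 78.8%.

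SLC16A1 (ENSG00000155380, chromosome 1, 112911847 to 112957013, minus strand) encodes MCT1, a transporter of lactate and pyruvate in either direction. SW1990 cells had 4296 counts unirradiated and 2054 irradiated, and PANC-1 cells 1370 and 1545. The unirradiated SW1990 library stood above the other 3, and the irradiated SW1990 library lay nearer to the PANC-1 libraries than to its own control. The log2 ratio was -1.07 (-1.148 to -0.995) in SW1990 cells, the value on which the gene was chosen, and 0.30 (0.20 to 0.41) in PANC-1 cells. From the FPKM values, 49.1 and 26.1 in SW1990 and 11.8 and 16.5 in PANC-1 cells, the log2 ratios were -0.91 and 0.47, so that SLC16A1 was not past 2-fold by FPKM. SLC16A1 shares 175 of its 5312 exon bases with the antisense gene SLC16A1-AS1, which had 433, 446, 293 and 245 counts, nearly level in SW1990 cells.

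SLC16A3 (ENSG00000141526, chromosome 17, 82228397 to 82261129, plus strand) encodes MCT4. Its counts were 393 and 887 in SW1990 and 3734 and 3601 in PANC-1 cells. Both PANC-1 libraries were far above both SW1990 libraries, and within SW1990 the irradiated library was the higher. The log2 ratio was 1.17 (0.99 to 1.34) in SW1990 and 0.08 (0.01 to 0.14) in PANC-1 cells. From the FPKM values, 9.37 and 18.3 in SW1990 and 64.4 and 71.4 in PANC-1 cells, the ratios were 0.96 and 0.15, so this gene too was not past 2-fold by FPKM. SLC16A3 shares 482 of its 8995 exon bases with CSNK1D on the opposite strand, which had 2477, 2631, 3717 and 3369 counts. Whether the counting used strand was not given in the sources used here, and the part of such reads in the SLC16A3 counts was not tested.

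**Figure D2:**
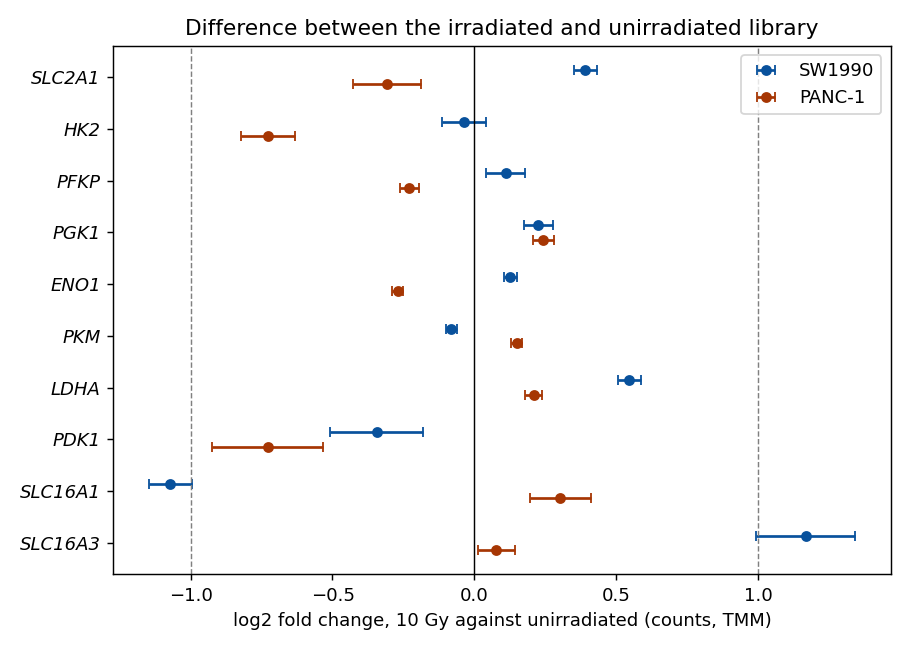
Log2 ratio of irradiated to unirradiated counts for each of the 10 genes in SW1990 and PANC-1 cells, with bars for the exact 95% counting interval and lines at the 2-fold limit. In SW1990 cells SLC16A1 lies at -1.07 and SLC16A3 at 1.17, and all PANC-1 values lie between -0.73 and 0.30.

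Within the family of monocarboxylate transporters the share of SLC16A1 was 84.0% of the FPKM in unirradiated and 58.8% in irradiated SW1990 cells, with SLC16A3 at 16.0% and 41.2%. In PANC-1 cells SLC16A3 was the more abundant, at 84.3% and 81.2%, with SLC16A1 at 15.5% and 18.7%. By counts per kilobase of exon, SLC16A1 held 94.9%, 79.7%, 38.1% and 42.0% and SLC16A3 5.13%, 20.3%, 61.3% and 57.8%. The leading transporter of each line was the same by both measures, as was the lower SLC16A1 share after irradiation in SW1990 cells. Over the families examined, the listed gene held over 50% of the FPKM in all 4 libraries in 3 families, those of PGK1, ENO1 and PKM.

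**Figure D3:**
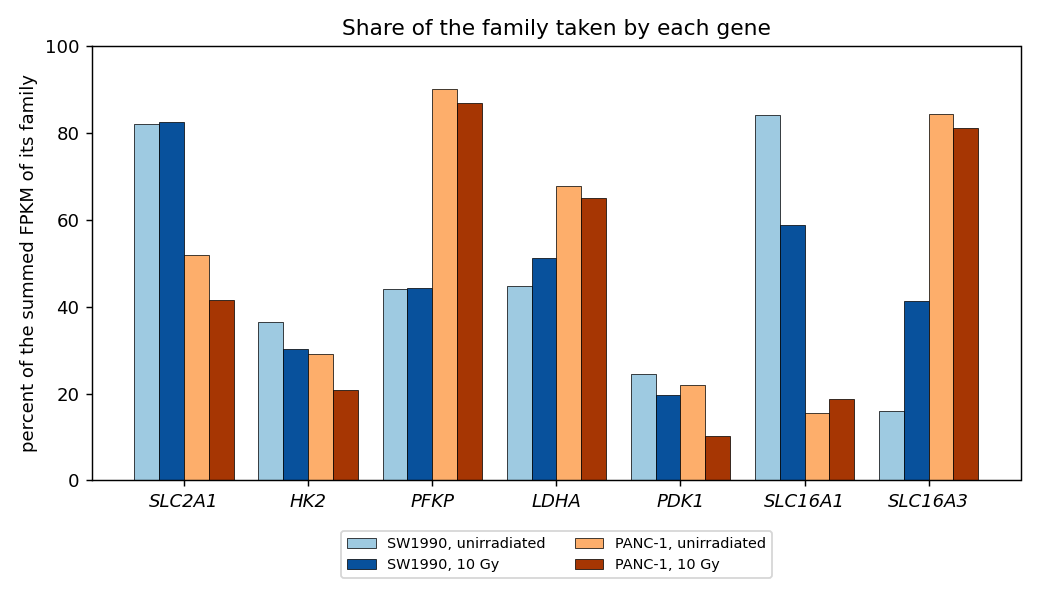
Share of the summed FPKM of its enzyme or transporter family held by each gene shown, in percent, in each of the 4 libraries. The genes shown are SLC2A1, HK2, PFKP, LDHA, PDK1, SLC16A1 and SLC16A3, without PGK1, ENO1 and PKM. SLC16A1 holds 84.0% in unirradiated SW1990 cells and 15.5% in unirradiated PANC-1 cells, and PFKP 44.0% and 90.1%.

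Over the 10 genes, the ratio after irradiation was above 1 for 6 and below 1 for 4 in SW1990 cells, with a median log2 ratio of 0.12, and above 1 for 5 and below 1 for 5 in PANC-1 cells, with a median of -0.08. Of all genes tested, 7696 of 15731 in SW1990 and 7356 of 15159 in PANC-1 cells had a ratio above 1, and their medians were -0.01 and -0.02. PGK1, LDHA and SLC16A3 were higher in both lines and PDK1 was lower in both. HK2 was lower in PANC-1 cells, and its SW1990 interval crossed 0. SLC2A1 and ENO1 were higher in SW1990 and lower in PANC-1 cells, and PKM and SLC16A1 the reverse.

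The effect of radiation over both lines was tested on all 4 libraries by edgeR's quasi-likelihood fit of line and radiation, which leaves 1 residual degree of freedom, and p-values were adjusted by the Benjamini-Hochberg method over 18180 genes. For radiation 0 genes (0%) passed an adjusted p of 0.05 in edgeR, 833 were below 0.05 unadjusted, DESeq2 called 39, none of them among the 10, and limma on FPKM values called 0. Of the 10, PDK1 had the lowest unadjusted p, with a log2 ratio of -0.52 over both lines and an adjusted p = 0.936 in edgeR. LDHA, the next, had a log2 ratio of 0.39 and an adjusted p = 0.936 in edgeR. SLC16A1, which differed in direction between the lines, had a log2 ratio of -0.37 and an adjusted p = 0.946 in the same edgeR fit.

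More genes differed between the lines. In the same fit 43.6% of the 18180 genes differed between SW1990 and PANC-1 cells at an adjusted p of 0.05, 21.4% higher in SW1990 and 22.2% higher in PANC-1 cells. Of the 10 genes 5 passed, a share near this background, 1 higher in SW1990 and 4 higher in PANC-1 cells. With total-count scaling 8 of the 10 passed, beside 7970 of the 18180 genes, so the share depended on the scaling. SLC2A1 was 9.15-fold higher in SW1990 cells (edgeR, adjusted p = 0.00145, higher in 2 of 2 libraries against each PANC-1 library). SLC16A3 was 5.74-fold higher in PANC-1 cells (adjusted p = 0.0049), with 8.52-fold between the unirradiated and 3.93-fold between the irradiated libraries. PFKP was 3.64-fold higher in PANC-1 cells (adjusted p = 0.00203). PGK1 and LDHA were higher in PANC-1 cells by 1.74-fold (adjusted p = 0.00988) and 1.51-fold (adjusted p = 0.0347). PGK1 did not pass with limma on log2(FPKM + 0.1) (adjusted p = 0.108), and LDHA did not pass in edgeR without a filter on low counts (adjusted p = 0.0709) or with limma on FPKM values at either pseudocount (adjusted p = 0.153 and 0.232). SLC16A1 was 2.20-fold higher in SW1990 cells over both treatments without passing the test (adjusted p = 0.0576), with 3.50-fold between the unirradiated and 1.38-fold between the irradiated libraries. It passed with DESeq2 size factors (adjusted p = 0.0458), total-count scaling (adjusted p = 0.05 as rounded, on the threshold), DESeq2 (adjusted p = 0.0239) and limma on log2(FPKM + 1) (adjusted p = 0.0335). HK2 was at 1.52-fold in the same direction (adjusted p = 0.081), and passed with total-count scaling (adjusted p = 0.0321) and with limma on log2(FPKM + 1) (adjusted p = 0.0332). PDK1 did not pass in edgeR (adjusted p = 0.069), and did with total-count scaling (adjusted p = 0.0348).

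Around these genes, 7 further lists of the pathway were counted in the same way. Among 12 other glycolytic enzymes tested in SW1990 cells 11 had a ratio above 1 and 1 was past 2-fold, with a median of 0.18, and of 13 tested in PANC-1 cells 10 had a ratio above 1 and 1 was past 2-fold, with a median of 0.17. Among all genes tested, 7696 of 15731 and 7356 of 15159 had a ratio above 1. By FPKM the sign turned in SW1990 cells for PFKL, from 0.11 to -0.10, and for LDHB, from 0.005 to -0.02. In PANC-1 cells it turned for HK1, from -0.02 to 0.08. The numbers of these enzymes above 1 thus depended on the measure. GAPDH, the most abundant, had 80744 and 85649 counts in SW1990 and 60760 and 51370 in PANC-1 cells. It was slightly higher after irradiation in SW1990 and lower in PANC-1 cells, with log2 ratios of 0.08 and -0.11. TPI1, triosephosphate isomerase, was at 0.12 and 0.17, and ALDOA, aldolase A, at 0.26 and 0.16. ENO2, the neuronal enolase, had 1288 and 646 counts in SW1990 and 398 and 703 in PANC-1 cells. It was lower after irradiation in SW1990 and higher in PANC-1 cells, with log2 ratios of -1.002 and 0.95, the former -0.40 by FPKM and so not past 2-fold. HKDC1, a minor hexokinase, had 68 and 65 counts in SW1990 and 95 and 26 in PANC-1 cells, with a log2 ratio of -1.74 (-2.42 to -1.10) in PANC-1 cells. It reached an FPKM of 1 only in the unirradiated PANC-1 library, so the filter favoured this ratio and nothing is read from it. In SW1990 cells HKDC1 was below the filter and not tested. Between the lines, 4 of 13 of these enzymes were higher in SW1990 and 1 in PANC-1 cells by edgeR, the shares over all genes being 21.4% and 22.2%, so that the 5 in all were near the background of 43.6%.

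Of the other glucose transporters, 5 were tested in SW1990 cells, 4 of them with a ratio above 1, and 3 in PANC-1 cells, 1 with a ratio above 1, where all genes gave 7696 of 15731 and 7356 of 15159, with medians of 0.35 and -0.32 and 0 past 2-fold by counts in either line. SLC2A3, encoding the high-affinity transporter GLUT3, had 283 and 464 counts in SW1990 cells and 0 and 4 in PANC-1 cells. In PANC-1 cells it was at or near the 3 counts that a count of 0 allows in a library, so no ratio is given there. SLC2A8 had 437 and 471 counts in SW1990 and 264 and 360 in PANC-1 cells, with log2 ratios of 0.10 and 0.58. SLC2A6 had 50 and 90 counts in SW1990 and 359 and 263 in PANC-1 cells, with log2 ratios of 0.84 (0.33 to 1.37) and -0.32 (-0.55 to -0.09). By FPKM 2 of the 5 were past 2-fold in SW1990 cells, SLC2A6 at 1.21 and the sodium-glucose cotransporter gene SLC5A1, named after its values were seen, at -2.16 (-0.95 by counts). Each reached an FPKM of 1 only in the SW1990 library where it was the higher. The filter thus favoured these ratios, and nothing is read from them. Between the lines, 3 of 7 passed as higher in SW1990 and 2 as higher in PANC-1 cells, the shares over all genes being 21.4% and 22.2%. The 3 were SLC2A3, SLC2A10 and SLC5A1, each with at most 4 counts in a PANC-1 library. They entered the test only through the SW1990 libraries, so nothing is read from this count.

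Most of the regulators of glycolytic flux set the level of fructose 2,6-bisphosphate, an activator of phosphofructokinase, and the list also holds TXNIP, an inhibitor of glucose uptake. Of 5 tested in each line, 4 had a ratio above 1 in SW1990 and 2 in PANC-1 cells, beside 7696 of 15731 and 7356 of 15159 of all genes, with medians of 0.16 and -0.15 and 0 past 2-fold. PFKFB2 was at 0.16 and -0.51, PFKFB3 at 0.37 and 0.04 (-0.16 to 0.23), and TIGAR, the p53-induced phosphatase, at 0.10 (-0.07 to 0.27) and -0.15 (-0.39 to 0.09), with both TIGAR intervals reaching across 0. In PANC-1 cells the FPKM ratios turned the sign of PFKFB3, to -0.55, and of TIGAR, to 0.07. They also turned PFKFB4, named after its values were seen, from -0.45 (-0.82 to -0.08) by counts to 0.38. In SW1990 cells they turned TXNIP, from -0.02 by counts to 0.05. The numbers of regulators above 1 thus depended on the measure. Between the lines 2 of 5 passed as higher in SW1990 and 1 as higher in PANC-1 cells, the shares over all genes being 21.4% and 22.2%.

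Of the genes of pyruvate entry into mitochondria, 7 of 11 tested had a ratio below 1 in SW1990 and 8 of 11 in PANC-1 cells, against 8035 of 15731 and 7803 of 15159 of all genes tested, with medians of -0.09 and -0.06. PDP1, the phosphatase that reactivates pyruvate dehydrogenase, had 4419 and 3622 counts in SW1990 and 935 and 587 in PANC-1 cells. It was lower after irradiation in both lines, with log2 ratios of -0.29 and -0.54, and 5.81-fold higher in SW1990 than in PANC-1 cells (edgeR, adjusted p = 0.0011). PDHA1 was at -0.09 and -0.14 and DLD at -0.17 and -0.05, both subunits of the pyruvate dehydrogenase complex. By FPKM the sign turned for PDHA1 in SW1990 cells, to 0.06, and for DLD in PANC-1 cells, to 0.24. It also turned for PDHB, PDHX and MPC2, named after their values were seen, each to 0.05 in PANC-1 cells. In SW1990 cells PDHX turned from 0.01 by counts to -0.07. The numbers of these genes below 1 thus depended on the measure. PDK4, a starvation-induced relative of PDK1, had 55 and 35 counts in SW1990 and 59 and 122 in PANC-1 cells. There it was past 2-fold at 1.18 (0.72 to 1.65), the only tested gene of this list to be so by counts. PDK4 reached an FPKM of 1 only in the irradiated PANC-1 library, so the filter favoured this ratio and nothing is read from it. PDK3, at 1.13 by counts, was below the filter in PANC-1 cells and not tested. By FPKM PDP1 was also past 2-fold in PANC-1 cells, at -1.10. Between the lines 4 of 12 passed as higher in SW1990 and 1 as higher in PANC-1 cells, the shares over all genes being 21.4% and 22.2%, the 5 in all being near the background of 43.6%.

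The transporters MCT1 and MCT4 need basigin, encoded by BSG, to reach the membrane, and embigin, encoded by EMB, is a related chaperone. BSG had 5393 and 5656 counts in SW1990 and 4727 and 3876 in PANC-1 cells, and its log2 ratios of 0.06 and -0.16 were small beside those of SLC16A1 and SLC16A3 in SW1990 cells, the PANC-1 value being 0.07 by FPKM. EMB had 0 counts in both SW1990 libraries, a level of up to 0.168 and 0.164 CPM (the count relative to library size) at 3 counts, and 1458 and 882 counts in PANC-1 cells. SLC16A7, encoding MCT2, also had 0 counts in both SW1990 libraries and 57 and 20 in PANC-1 cells. EMB and SLC16A7 thus had counts in PANC-1 cells only. Of this list of 6 genes, 1 was tested for radiation in SW1990 and 2 in PANC-1 cells, with medians of 0.06 and -0.38 and 0 past 2-fold. Between the lines 1 of 3 passed as higher in SW1990 and 2 as higher in PANC-1 cells, the shares over all genes being 21.4% and 22.2%. The latter 2, EMB and SLC16A7, entered the test only through the PANC-1 libraries, so nothing is read from this count.

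Of the hypoxia regulators and targets, 12 of 19 were above 1 in SW1990 and 8 of 16 in PANC-1 cells, where all genes gave 7696 of 15731 and 7356 of 15159, with medians of 0.20 and 0.00 and 1 past 2-fold by counts, DDIT4 in PANC-1 cells. DDIT4, a stress-induced inhibitor of mTORC1, had 392 and 452 counts in SW1990 and 7523 and 2098 in PANC-1 cells. The log2 ratios were 0.20 and -1.71, with unirradiated PANC-1 cells far above the other 3 libraries. HIF1A was at 0.23 and -0.42, and VEGFA, the angiogenic growth factor, was lower in both, at -0.45 and -0.82. By FPKM VEGFA, at -1.05, and NDRG1, a stress-responsive gene named after its values were seen, at 1.35 (0.91 by counts), were also past 2-fold in PANC-1 cells. Between the lines, 4 of 20 passed as higher in SW1990 and 9 as higher in PANC-1 cells, beside 21.4% and 22.2% of all genes tested. Of these, EGLN3, CA9 and CA12 had at most 6 counts in a PANC-1 library, and BNIP3 had 0 in both SW1990 libraries. Each entered the test through 1 line only, so nothing is read from these counts. The 7 pentose phosphate genes, of a pathway that branches off glycolysis, had median log2 ratios of -0.01 and -0.06, with 0 past 2-fold. TKT, transketolase, was at 0.03 and -0.06, the latter 0.09 by FPKM, and TALDO1, transaldolase, at 0.04 and 0.03. TKT was 2.68-fold higher in SW1990 than in PANC-1 cells (edgeR, adjusted p = 0.00255), 1 of 2 of this list to pass as higher in SW1990 cells, with 0 of 7 higher in PANC-1 cells, the shares over all genes being 21.4% and 22.2%.

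The genes whose levels over the 4 libraries lay closest to those of each lactate transporter were found by the Euclidean distance of centred log2(FPKM + 1) values among the 11413 genes that reached an FPKM of 5 in any library. For SLC16A1 they were GOLGA2P5 (distance 0.0994), NAA15 (0.13) and RASSF7 (0.145). NAA15, a subunit of an N-terminal acetyltransferase, stood at 69.2 and 40.0 FPKM in SW1990 and 18.2 and 22.7 FPKM in PANC-1 cells. For SLC16A3 they were TSPAN4 (0.153), MOSPD1 (0.169) and IDS (0.253). TSPAN4, a tetraspanin, stood at 20.3 and 36.6 FPKM in SW1990 and 119 and 129 FPKM in PANC-1 cells. With 4 libraries, many genes can share such a pattern.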

How the data were processed

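Total RNA of 4 cell line cultures was sequenced, 1 library per line and treatment. Per the labels the RNA was depleted of ribosomal RNA, while the protocol names an mRNA kit. The authors' processing notes name CASAVA 1.8, FastQC 0.11.2, Trimmomatic 0.36, HISAT2 2.0, StringTie 1.3.3b and DESeq2 1.12.4, with GRCh38. The authors deposited raw counts and FPKM values per gene. The tool that made the counts was not given in the sources used here. Rows without a gene identifier, 1089 of 59263, held at most 0.635% of the counts and were left out.

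Counts were scaled by TMM within each line, and counts below 3 were set to 3. Fits over the 4 libraries used edgeR 4.0.16 (R 4.3.3), tested on simulated data, with DESeq2 1.42.0 and limma 3.58.1 as alternatives. The simulated counts had a smaller spread than these libraries and the same changes in both lines. They therefore do not show how the fit performs on these data. The separate cultures behind the libraries are not described. In the 4-library fits the 1 residual degree of freedom is the difference in radiation response between the lines. The p-values are set against that difference and do not measure a spread between cultures. Named are the 10 genes and, from each list, those past 2-fold plus the 3 with the highest mean FPKM. A gene that this rule names is not reported here. The genes and lists were chosen with earlier results of these data known. Gene coordinates are from GENCODE, in which 57836 of 58174 identifiers were found, 96.9% at the coordinates of the deposited table. Pseudogenes held at most 2.11% of the counts of their parent gene, the highest for LDHA.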

Additional observations from a re-analysis of the deposited data

Results flagged for a closer look

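For 4 of the 10 genes the log2 ratio after irradiation had opposite signs in the 2 lines, and none of these differences was tested, since each line had 1 library per condition. The share of all genes with opposite signs was not counted, so nothing is read from the 4 of 10. SLC16A1 is also the gene on which the set was chosen. The ratio in SW1990 minus that in PANC-1 cells was -1.37 for SLC16A1 (MCT1), 0.70 for SLC2A1 (GLUT1), 0.40 for ENO1 and -0.23 for PKM. All 4 kept opposite signs with each of the other library scalings and with FPKM values. The sizes moved by FPKM, where ENO1 was at 0.06 in SW1990 and -0.03 in PANC-1 cells, a smaller difference, and PKM at -0.25 and 0.22, a larger one.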

How the results depend on the processing

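The within-line ratios of the 10 genes kept their signs under the other scalings and FPKM ratios, except PFKP in SW1990 cells (-0.01 by FPKM). Without a filter on low values 3110 genes were past 2-fold in SW1990 and 3151 in PANC-1 cells, with a limit of 1.5-fold 2969 and 3102, and with 2-fold and a q-value below 0.001 650 and 712, against 1257 and 1176. The limit of 1.5-fold added 2 of the 10 genes in PANC-1 cells, HK2 and PDK1. With ratios of FPKM values 0 of the 10 were past 2-fold in SW1990 cells, where 2 were by counts. DESeq2 called 39 genes for radiation over both lines, 11 higher and 28 lower, with 10926 adjusted p-values not given. Between the lines, limma on log2(FPKM + 0.1) called 5199 of 17662 genes and 3 of the 10. Total-count scaling called 7970 of 18180 genes and 8 of the 10. The main fit called 7921 and 5. SLC16A1 passed between the lines with total counts (adjusted p = 0.05), DESeq2 size factors (adjusted p = 0.0458), DESeq2 (adjusted p = 0.0239) and limma on log2(FPKM + 1) (adjusted p = 0.0335). LDHA missed without the filter (adjusted p = 0.0709) and with limma (adjusted p = 0.153 and 0.232). By counts per kilobase, 5 families in place of 3 had the listed gene above 50% in all 4 libraries. The cause of these shifts was not tested.

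The labels give no replicate numbers, and cell line is already a term of the 4-library fit. Leaving out a library leaves the 4-library fit with no residual degrees of freedom. The radiation values rest on 1 library per condition, so their spread between cultures is unknown.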
